A study of Mus musculus with 6 samples.

Results

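The genes described here encode the subunits of the 3 nuclear RNA polymerases, the Mediator complex and the TBP-associated factors (TAFs), in N2a cells with and without knockdown of nucleophosmin (Npm1). They were chosen by name alone, as every gene whose symbol starts with Polr1, Polr2 or Polr3 and a letter, Med and a digit, or Taf and a digit, pseudogenes left out. This gave 87 of the 26656 genes listed. By the known role of their products, 5 were subunits of polymerase I only, 2 were shared by polymerases I and III, 5 were shared by all 3 polymerases, 8 belonged to polymerase II and 10 to polymerase III. A further 4 were TAFs of the polymerase I factor SL1, 18 were listed under TFIID, 30 under Mediator and 2 under the SAGA coactivator, and Taf15 encodes an RNA-binding protein of the FET family. Of the 18, 2 carry the symbol Taf9, and 1 of these also carries Ak6, an adenylate kinase, so it may not be a second TFIID subunit. The last 2, Med9os and Polr1has, are antisense genes that carry a subunit's name and encode no subunit. Polr1g was not listed under that symbol; its older name Cd3eap, which the rule does not take, read 4 in all 6 libraries.

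N2a is a mouse neuroblastoma cell line, labelled here as wild type in genotype. The cells of both groups were transfected with a pLKO.1 plasmid and grown for 72 h (3 days in vitro), with shNpm1 (TRCN0000115430) in the NPM1 KD group and the Non Target #3 hairpin (shCTR) in the CTR group, 3 libraries each. Puromycin selection from the day after transfection is described for the knockdown experiments, and whether the CTR cells were selected is not spelled out. A lone hairpin was used, so its effect on Npm1 and any effect on other genes cannot be told apart, and the labels give 3 biological replicates in the design text and 2 in the treatment protocol, so p-values measure the spread between these libraries, which may be technical. RNA was copied into cDNA, amplified by PCR and sequenced as long reads on a GridION instrument, to ask how lower NPM1 levels and the H3K79me2 mark bear on the transcriptome.

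Transcription in the nucleus is shared among 3 enzymes: polymerase I makes the large ribosomal RNA precursor in the nucleolus, polymerase II makes messenger RNA, and polymerase III makes transfer RNA, 5S ribosomal RNA and other short RNAs. Each is built around its own pair of large catalytic subunits, and several small subunits are common to all of them. TFIID, made of TBP and TAFs, recognizes polymerase II promoters, and Mediator carries signals from activators at enhancers to the polymerase through head, middle and tail modules and a detachable kinase module. NPM1 is an abundant nucleolar protein, which places polymerase I and its factors in the same compartment.

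The values were regularized log (rlog) values, a normalized level of each gene in each library on a log2 scale shrunk towards the mean of the gene, and every value of 1 or more had been rounded to a whole number. A difference of 1 unit is therefore nominally a 2-fold change. A change smaller than the rounding step could leave no trace, or could read as a whole unit where the level lies near a rounding edge. The targeted gene read 10 in each CTR library and 8 in each NPM1 KD library (log2 fold change −2 ± 0.33, SE, n = 3 per group, adjusted p = 3.23e-06 in limma's moderated test with Benjamini-Hochberg adjustment over 5752 genes). The size factors, which give the relative depths, were 1.11 to 1.30 in CTR against 0.784 to 0.961 in NPM1 KD, so the groups did not overlap in depth, and the part of depth in the results was not tested. Of the sympathoadrenal markers, 5 of 10 reached the level for testing, with 1 higher (Hand2, at 7 to 8), 1 equal and 3 lower by mean and a mean difference of −0.53. The neuroendocrine granin Chga fell from 7, 7 and 7 to 5, 6 and 6 (adjusted p = 0.026), and Isl1, of the same list, read 5 in every CTR library and 4 in every NPM1 KD library (adjusted p = 0.0791). Of 4 tested neuronal genes, Tubb3, Stmn2 and Gap43 each read 1 unit lower in every NPM1 KD library (adjusted p = 0.0791) and Uchl1 read 8 throughout. Immune markers were at 0 in all libraries for 4 of 4 genes, and the summed normalized reads were 0 to 5.21 per library for 5 fibroblast and 0 to 4.83 for 4 glial markers.

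Of the 87 genes, 46 had a mean rlog of at least log2 of 10 over all libraries and were tested among 5752 genes. In limma, 0 were called at an adjusted p under 0.05, against a background of 0.0695% of tested genes called higher and 0.417% called lower. At an unadjusted p under 0.05 there were 8 of 46, against 14.1% of all tested genes. By group means, 23 of the 46 were higher in NPM1 KD, 20 were equal and 3 were lower, where 24.6% of all tested genes were higher and 27.4% lower. The higher genes include Taf11 and Med11, which reached the level for testing only through their NPM1 KD libraries. The mean difference over the 46 was 0.23 and the median 0.17, against a mean of −0.02 and a median of 0 over all tested genes. In bulk RNA, a different number of cells and a different amount of RNA per cell cannot be told apart.

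**Figure D1:**
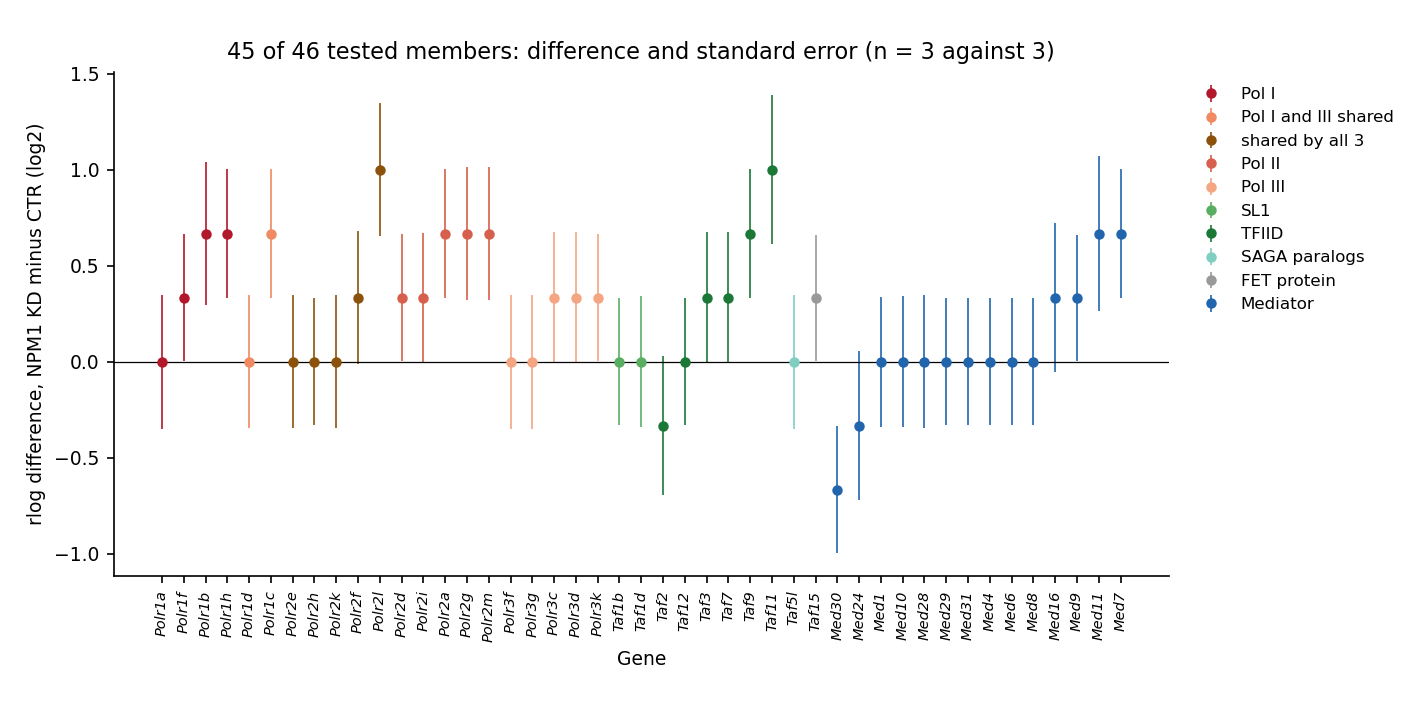
Difference in rlog between NPM1 KD and CTR (log2 scale, vertical axis) for 45 of the 46 tested genes, coloured by complex; points are differences of group means and lines are standard errors (n = 3 per group). Differences come in steps of 0.33 because the values are whole numbers, and the largest, 1 unit, belong to Polr2l and Taf11.

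The balance of directions can be read complex by complex. Of 22 tested polymerase subunits, 14 were higher in NPM1 KD, 8 were equal and 0 were lower, with a median difference of 0.33. TFIID had 4 higher, 1 equal and 1 lower of 6 tested. Mediator had 4 higher, 8 equal and 2 lower of 14 tested, with a median of 0 and a mean of 0.07. Taf11 in TFIID and Med11 in Mediator count as higher but reached the level for testing only through NPM1 KD. The difference between the complexes was not tested.

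**Figure D2:**
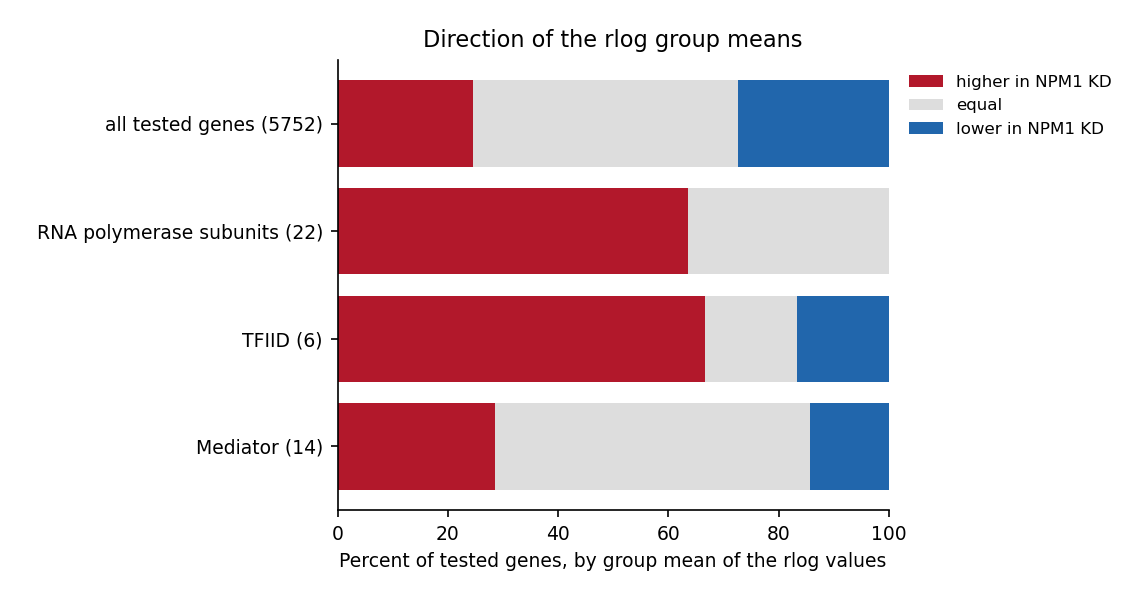
Share of tested genes (percent, horizontal axis) whose group mean of rlog was higher (red), equal (grey) or lower (blue) in NPM1 KD, for all 5752 tested genes and for 22 polymerase subunits, 6 TFIID subunits and 14 Mediator subunits. The polymerase bar holds no blue segment, while the bar of all tested genes has red and blue segments of 24.6% and 27.4%.

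The same balance was seen library by library. Averaged over the 22 polymerase subunits, the mean rlog was 5.18, 5.27 and 5.23 in CTR libraries 1 to 3 and 5.68, 5.50 and 5.50 in NPM1 KD libraries 1 to 3. The lowest NPM1 KD library thus lay above the highest CTR library. The 6 tested TFIID genes were also without overlap, at 4, 4 and 3.83 in CTR against 4.17, 4.17 and 4.50 in NPM1 KD. That separation rests on Taf11, at 3 in every CTR library and 4 in every NPM1 KD library. Taf11 reached the level for testing only through NPM1 KD. The 15 tested general polymerase II factors described last were at 5.27 to 5.47 against 5.53 to 5.73. Their separation rests on Gtf2b and Tbpl1, each at 5 in every CTR library and 6 in every NPM1 KD library. Without these genes, both sets overlapped between the groups. Over all tested genes the means were 5.312, 5.308 and 5.314 in CTR against 5.303, 5.266 and 5.293 in NPM1 KD. These did not overlap either, and were lower in NPM1 KD. Mediator overlapped between the groups, at 4.71, 4.86 and 4.93 in CTR against 4.79, 5.00 and 4.93 in NPM1 KD. Leaving out each library in turn gave 12 to 14 higher and 0 or 1 lower of the 22 polymerase subunits.

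**Figure D3:**
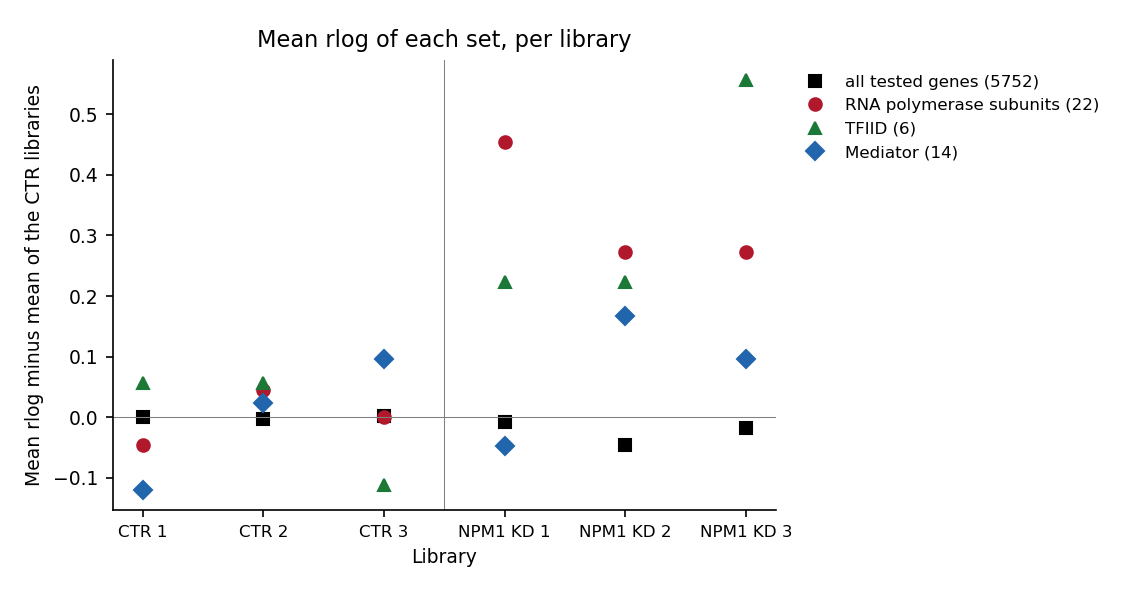
Mean rlog of each set in each library, as the difference from the mean of its 3 CTR libraries (vertical axis, log2 units), for 22 polymerase subunits (red circles), 6 TFIID subunits (green triangles), 14 Mediator subunits (blue diamonds) and all 5752 tested genes (black squares). The red circles and green triangles of the 3 NPM1 KD libraries lie above all CTR points of the same set, the triangles only with Taf11 included. The black squares stay near 0, slightly lower in NPM1 KD.

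The groups of 3 libraries did not overlap for 2 of the 46 tested genes, both higher in NPM1 KD, against 2.19% of all tested genes in that direction. None was lower without overlap, against 3.41%. The 2 genes were Polr2l and Taf11, the latter at the level for testing only through its NPM1 KD libraries. Among genes with few reads, described further on, the groups did not overlap for Taf13 and Med13 (higher) and Taf1 (lower), nor for Med20 and Taf9b, which had under 3 normalized reads on average. The promoters of the first 5 genes are shown because their libraries separated, each as the 250 bases before the start of the gene, from RefSeq on GRCm38.p6, for 71 of 87 genes matched by symbol. Capitals mark the letters of 6 motifs on either strand. The GC box was searched as GGGCGG and the TATA box as TATAAA. The core of an ETS site was searched as CCGGAAG, and the E-box, a site of MYC and related factors, as CACGTG. The CCAAT box and the core of a cyclic AMP response element (CRE), searched as TGACG, complete the list. RefSeq gives Taf11 a pair of starts, and both are shown, since the files do not say which was used.

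Polr2l (chr7:141475154-141475403, minus strand): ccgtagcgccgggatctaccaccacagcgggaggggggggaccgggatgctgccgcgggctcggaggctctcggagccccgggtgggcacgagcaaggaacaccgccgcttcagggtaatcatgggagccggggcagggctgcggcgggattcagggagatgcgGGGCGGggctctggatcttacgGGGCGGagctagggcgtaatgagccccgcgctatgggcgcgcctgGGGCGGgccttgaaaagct
Taf11, upstream start (chr17:27909243-27909492, minus strand): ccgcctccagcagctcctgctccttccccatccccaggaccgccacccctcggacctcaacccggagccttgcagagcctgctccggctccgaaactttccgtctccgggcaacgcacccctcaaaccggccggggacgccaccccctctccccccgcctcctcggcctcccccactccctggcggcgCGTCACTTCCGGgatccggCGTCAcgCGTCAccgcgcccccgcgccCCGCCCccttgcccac
Taf11, downstream start (chr17:27907745-27907994, minus strand): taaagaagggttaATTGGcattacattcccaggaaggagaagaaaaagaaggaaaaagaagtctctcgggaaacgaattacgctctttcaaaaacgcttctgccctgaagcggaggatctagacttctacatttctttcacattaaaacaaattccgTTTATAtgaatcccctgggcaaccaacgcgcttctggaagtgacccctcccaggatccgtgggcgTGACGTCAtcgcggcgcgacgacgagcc
Taf13 (chr3:108571449-108571698, plus strand): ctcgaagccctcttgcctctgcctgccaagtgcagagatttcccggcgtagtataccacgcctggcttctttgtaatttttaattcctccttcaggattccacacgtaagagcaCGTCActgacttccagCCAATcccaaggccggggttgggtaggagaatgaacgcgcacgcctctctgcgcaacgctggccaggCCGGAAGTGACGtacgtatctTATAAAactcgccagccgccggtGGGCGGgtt
Med13 (chr11:86357597-86357846, minus strand): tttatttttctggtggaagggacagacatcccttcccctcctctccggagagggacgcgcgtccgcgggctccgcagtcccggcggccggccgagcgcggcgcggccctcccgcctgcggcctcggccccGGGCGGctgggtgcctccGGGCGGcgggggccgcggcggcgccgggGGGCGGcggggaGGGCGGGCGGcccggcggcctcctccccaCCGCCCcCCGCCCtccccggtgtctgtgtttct
Taf1 (chrX:101532485-101532734, plus strand): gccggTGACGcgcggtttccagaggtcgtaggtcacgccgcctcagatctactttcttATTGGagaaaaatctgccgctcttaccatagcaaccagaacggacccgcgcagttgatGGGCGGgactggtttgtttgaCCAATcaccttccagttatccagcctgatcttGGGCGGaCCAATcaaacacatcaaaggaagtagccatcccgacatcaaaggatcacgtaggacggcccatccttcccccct

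The GC box letters were found in 3 places before Polr2l, in 7 before Med13, overlapping in part, and in 2 before Taf1. Taf13 held TATAAA 32 bases before its start, together with an ETS core that runs into a CRE core. The CRE core was also found in both Taf11 windows, and 3 CCAAT letters (1 of them on the minus strand) in that of Taf1. Over 83 promoters of 70 symbols, the GC box letters were in 61.4%, against 32.7% of all 32851 promoters of that length. The ETS core was in 22.9% against 6.91%, the CRE core in 31.3% against 17.8%, the E-box in 9.64% against 6.02%, CCAAT in 33.7% against 33.8% and TATAAA in 10 of the 83 against 12.4%. A match of letters is a description of the sequence only.

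Polymerase I, the nucleolar enzyme, was represented by 5 genes of its own. Polr1a, its largest catalytic subunit, read 4 in all 6 libraries. Polr1b, the second-largest subunit, read 3, 4 and 3 in CTR against 4, 4 and 4 in NPM1 KD (difference 0.67 ± 0.37, SE, adjusted p = 0.396, limma). The CTR and NPM1 KD libraries thus shared the value 4. Polr1h, a small subunit with RNA cleavage activity, read 5 in every CTR library and 6, 5 and 6 in NPM1 KD (0.67 ± 0.33, adjusted p = 0.33). Polr1f, in the stalk, read 5 in every CTR library and 6, 5 and 5 in NPM1 KD. Polr1e (PAF53) had few reads, described further on. Of the subunits shared with polymerase III, Polr1c read 5, 5 and 5 in CTR against 6, 6 and 5 in NPM1 KD (0.67 ± 0.33, adjusted p = 0.33), whereas Polr1d read 8, 7 and 7 against 7, 8 and 7.

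The SL1 factor recruits polymerase I to ribosomal DNA. Its TAFs Taf1b and Taf1d read the same value in all libraries, 5 and 6. Taf1a had few reads, at 5.64, 7.68 and 6.28 normalized reads in CTR against 7.66, 7.21 and 11.5 in NPM1 KD, with overlap between the groups. Taf1c was at 0 reads in all 6 libraries, where a count of 0 allows up to 3 reads. Outside the rule, the polymerase I factors Ubtf and Rrn3 had equal group means, Ubtf at 4 in every library, and Ttf1 had few reads with a difference of −0.12.

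Of the 5 subunits common to all 3 polymerases, Polr2l (RPB10) stood apart. It read 7, 7 and 7 in CTR against 8, 8 and 8 in NPM1 KD (1.00 ± 0.35, SE, n = 3 per group). Its unadjusted p was 0.00389 and its adjusted p 0.0791, the smallest of the 46 and above the threshold. Leaving out a library could not change the difference, because the rounded values within each group are identical. The call was gained without the variance limit (adjusted p = 3.58e-11), a fit that ignores the rounding, or without the intensity trend (0.0304). Over all tested genes, those settings raised the share called higher from 0.0695% to 2.14% and 2.29%, and the share called lower from 0.417% to 3.09% and 3.79%. The other subunits in this class differed less: Polr2f (RPB6) read 6, 7 and 7 against 7, 7 and 7, and Polr2e (RPB5), Polr2h (RPB8) and Polr2k (RPB12) had equal values of 7, 5 and 7 throughout.

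All 5 tested subunits of polymerase II proper were higher in NPM1 KD by mean, none of them without overlap. Polr2a (RPB1), the catalytic subunit that carries the C-terminal repeat domain, read 5, 6 and 5 in CTR against 6, 6 and 6 in NPM1 KD (0.67 ± 0.34, adjusted p = 0.33). Polr2g (RPB7), in the stalk, and Polr2m (Gdown1), a substoichiometric subunit, each read 6 in every CTR library and 7, 6 and 7 in NPM1 KD (0.67 ± 0.34, adjusted p = 0.33). In each of these genes, at least 1 NPM1 KD library shared its value with CTR. Polr2d (RPB4), the partner of Polr2g, read 5 everywhere but in NPM1 KD library 3, at 6. Polr2i (RPB9) read 5, 5 and 6 against 6, 6 and 5. Over the 5 genes, the mean rlog was 5.40 to 5.60 in CTR against 5.80 to 6.20 in NPM1 KD.

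The 6 tested subunits of polymerase III had a mean difference of 0.17, against 0.42 for the 4 of polymerase I and 0.53 for the 5 of polymerase II. Polr3f and Polr3g, which belong to the initiation subcomplex, read 4 in all libraries. Polr3c, the other member of that subcomplex, read 4 except for 5 in NPM1 KD library 2. Polr3d read 4 except for 5 in NPM1 KD library 1, and Polr3k, the cleavage subunit, 5 except for 6 in NPM1 KD library 1. Their mean was 4.17 in each CTR library and 4.50, 4.33 and 4.17 in NPM1 KD, so NPM1 KD library 3 did not differ from CTR.

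In TFIID, Taf11 read 3, 3 and 3 in CTR against 4, 4 and 4 in NPM1 KD (1.00 ± 0.39, SE, unadjusted p = 0.0101, adjusted p = 0.166, limma). TAF11 forms a histone-fold pair with TAF13, whose few reads were also higher. The authors' mean normalized count of Taf11 was 11.7, so its whole unit rests on few reads, and it was likewise called without the variance limit (adjusted p = 2.44e-09) or without the intensity trend (0.0304), where 2.14% and 2.29% of all tested genes were called higher. Taf9, a core subunit also found in SAGA, read 4, 4 and 4 in CTR against 5, 4 and 5 in NPM1 KD (0.67 ± 0.33, adjusted p = 0.33). Its reads are uncertain through overlap with Ak6, described further on. Taf3, which reads H3K4me3, and Taf7, which binds TAF1, each read 4 except for 5 in 1 NPM1 KD library. Taf12 read 5, 5 and 4 against 4, 5 and 5, and Taf2, the initiator-binding subunit, read 4 except for 3 in NPM1 KD library 1. TBP itself read 4 in all libraries. Outside TFIID, the SAGA paralog Taf5l read 4 throughout, and the FET gene Taf15 read 5, 5 and 4 in CTR against 5, 5 and 5 in NPM1 KD (0.33 ± 0.33, adjusted p = 0.713).

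Mediator showed no common direction. Of its 30 genes, 14 were tested, and 7 of those read the same value in all 6 libraries: Med10 at 6, Med28 at 7, and Med29, Med31, Med4, Med6 and Med8 at 5. In the head, Med30 read 5, 5 and 6 in CTR against 5, 5 and 4 in NPM1 KD, the largest lower difference among the 46 (−0.67 ± 0.33, unadjusted p = 0.0431, adjusted p = 0.33). Med11, also in the head, read 3, 3 and 3 against 3, 4 and 4 (0.67 ± 0.40, adjusted p = 0.47). It reached the level for testing only through NPM1 KD. In the middle module, Med7 read 4, 4 and 4 against 5, 4 and 5 (0.67 ± 0.33, adjusted p = 0.33), and Med1, which contacts nuclear receptors, read 5, 6 and 6 in both groups. In the tail, Med16 read 3, 4 and 3 against 3, 4 and 4, and Med24 read 3, 4 and 4 against 3, 4 and 3. Med15, with an authors' mean normalized count of 10.8, lay between the 2 measurements and was not tested; it read 3 except for 4 in NPM1 KD library 1.

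For genes with a mean normalized count under 10, the 9 decimals of that mean allowed exactly 1 combination of whole reads in the 6 libraries for 8803 of 8804 genes, which gave unrounded values for 40 of the 87 genes, 2 of them (Taf1c and Taf7l2) at 0 reads. Of these, 24 had a mean of at least 3 and were compared among 3496 such genes on the log2(normalized reads + 1) scale with limma. In this fit 0 were called, against 0.0286% of genes called higher and 1.06% called lower, and 2 of 24 had an unadjusted p under 0.05, against 14.6%. By mean, 13 were higher and 11 lower, against 43.2% and 56.8% of the genes compared, with a median difference of 0.14 against −0.12. The groups did not overlap for 2 higher genes, against 7.18%, and for 1 lower gene, against 12.7%.

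Taf13, the histone-fold partner of TAF11 in TFIID, was highest among them in fold change. Its normalized reads were 3.22, 5.38 and 7.18 in CTR against 14.04, 10.8 and 17.7 in NPM1 KD, from 4, 7 and 8 against 11, 9 and 17 reads. The lowest NPM1 KD library lay above the highest CTR library. The group means were 5.26 ± 1.98 and 14.2 ± 3.45 (SD, n = 3), a ratio of 2.70, with a log2 fold change of 1.30 ± 0.40 (SE), an unadjusted p of 0.00254 and an adjusted p of 0.101. Without each library in turn the fold change was 1.05 to 1.52.

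Med13 links the kinase module to the core of Mediator. It had 7.25, 8.45 and 3.59 normalized reads in CTR against 16.6, 12.01 and 11.5 in NPM1 KD, again without overlap (log2 fold change 1.00 ± 0.38, unadjusted p = 0.0131, adjusted p = 0.211). Its paralog Med13l had 4.03, 7.68 and 8.08 against 11.5, 6.00 and 4.16, with overlap (0.06 ± 0.48). Med12, which activates the kinase, had 2, 3 and 3 reads in CTR against 0, 3 and 1 in NPM1 KD, too few for the comparison, and its paralog Med12l had 1 read in all. Of the kinase itself, Cdk8 read 3, 3 and 4 rlog units in CTR against 4, 4 and 4 in NPM1 KD (0.67 ± 0.37, adjusted p = 0.396), and its cyclin Ccnc 3, 4 and 4 against 4, 4 and 4.

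Taf1, the largest TFIID subunit, was the gene whose NPM1 KD libraries all lay below the CTR libraries, at 10.5, 9.21 and 9.87 normalized reads in CTR against 5.10, 7.21 and 4.16 in NPM1 KD. The group means were 9.85 ± 0.629 and 5.49 ± 1.56 (SD, n = 3; log2 fold change −0.77 ± 0.43, SE, adjusted p = 0.413). Of 6 TFIID genes compared by reads, 4 were lower and 2 higher by mean, or 3 and 2 of 5 without the gene that carries both Taf9 and Ak6. Taf8 had 6.44, 9.21 and 3.59 against 5.10, 1.201 and 3.12 (−0.89 ± 0.54), and Taf4, a core subunit, 5.64, 2.30 and 8.08 against 3.83, 4.803 and 1.04 (−0.60 ± 0.57), both with overlap. Taf5, another core subunit, had 3, 5 and 3 reads in CTR against 2, 0 and 0 in NPM1 KD, where a count of 0 allows up to 3. Taf6 was at 5.38 to 7.25 in CTR against 6.00 to 8.93 in NPM1 KD.

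**Figure D4:**
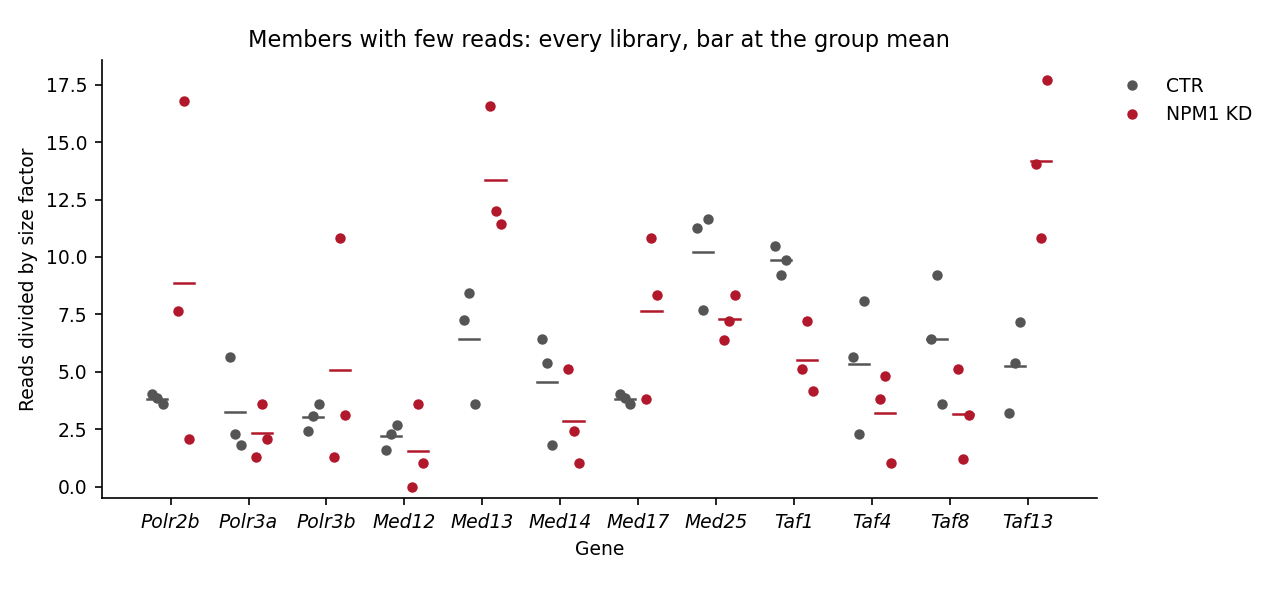
Normalized reads (reads divided by the size factor of the library, linear vertical axis) of 12 genes with few reads, with 1 point per library and a bar at each group mean, CTR in grey and NPM1 KD in red. The red points of Taf13 and Med13 lie above, and those of Taf1 below, all grey points of the same gene; the other genes overlap.

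The second-largest catalytic subunits of polymerases II and III depended on single libraries. Polr2b (RPB2) had 4.03, 3.84 and 3.59 normalized reads in CTR against 7.66, 16.8 and 2.08 in NPM1 KD (0.70 ± 0.55, adjusted p = 0.583). Without NPM1 KD library 2 the difference was 0.10, and without library 3 it was 1.37 (unadjusted p = 0.0157, adjusted p = 0.211). Polr3b had 2.42, 3.07 and 3.59 in CTR against 1.28, 10.8 and 3.12 in NPM1 KD (0.27 ± 0.62, adjusted p = 0.889), and without NPM1 KD library 2 the difference turned to −0.38, while without library 1 it was 0.80. The largest polymerase III subunit, Polr3a, had 7, 3 and 2 reads against 1, 3 and 2, and was too low to compare. Polr1e (PAF53) had 2.42, 7.68 and 6.28 normalized reads against 6.38, 4.803 and 16.7, with overlap. Polr3gl, the paralog of Polr3g, had 5.64, 4.61 and 2.69 against 7.66, 7.21 and 3.12, and Polr3e had 11.3, 7.68 and 6.28 against 10.2, 13.2 and 3.12.

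Med14, the backbone that holds the Mediator modules together, had 6.44, 5.38 and 1.79 normalized reads in CTR against 5.10, 2.40 and 1.04 in NPM1 KD (−0.55 ± 0.62, adjusted p = 0.736), a difference that ran from −0.98 without CTR library 3 to −0.16 without NPM1 KD library 3. Med17, in the head, had 4.03, 3.84 and 3.59 against 3.83, 10.8 and 8.33 (0.75 ± 0.50), with overlap through NPM1 KD library 1. In the tail, Med25 had 11.3, 7.68 and 11.7 against 6.38, 7.21 and 8.33 (−0.42 ± 0.38), and Med23 differed by −0.08 ± 0.39. The other Mediator genes compared by reads (Med18, Med19, Med21, Med22 and Med27) had fold changes from −0.39 to 0.64, all with overlap.

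A last 14 genes had reads but a mean under 3, among them Polr2c (RPB3), Polr2j (RPB11), Taf10, Taf4b, Taf7l, Med26 and Taf6l. The normalized reads of 2 of the 14 were higher in NPM1 KD without overlap, against 3.18% of 5307 such genes, and of 0 lower, against 5.29%. These were Med20, with 1, 2 and 2 reads in CTR against 2, 4 and 2 in NPM1 KD, and Taf9b, with 0, 1 and 1 against 2, 1 and 1. In both, libraries of the 2 groups shared the same number of reads and were set apart only by the size factors. Polr2c had 3, 1 and 2 reads against 2, 2 and 2, and its partner Polr2j had 3, 0 and 1 against 1, 1 and 2. Med26 had 4, 1 and 7 reads against 1, 1 and 1, and Taf6l had 1, 8 and 1 against 1, 1 and 1, the 8 coming from CTR library 2 alone.

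Summed over the 38 genes with known reads that are not antisense genes, the normalized reads were 166, 167 and 172 in CTR against 189, 196 and 184 in NPM1 KD, without overlap and with a ratio of group means of 1.13. Over all genes with few reads the ratio was 0.909. Those sums did not overlap either, at 26206.8 to 28781.4 in CTR against 23869.8 to 25992.5 in NPM1 KD. The separation of the sums over the 38 genes rests on Taf13 and Med13 together. Without both, these sums overlapped between the groups. The polymerase genes went from 31.0 ± 4.76 to 44.2 ± 13.8 (SD, n = 3), Mediator from 80.1 ± 7.09 to 86.2 ± 5.61 and TFIID from 48.2 ± 2.60 to 49.3 ± 10.7 (the gene with both Taf9 and Ak6 included), each overlapping between the groups.

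How reads were given to overlapping genes bears on some of these levels. In GENCODE M21 (GRCm38, an older build than the authors' GRCm39), 9 of the 87 genes shared over 25% of their exon bases with another gene. Taf10 shared 45.9% with Ilk on the opposite strand and had 9 reads in all. The gene with the symbols Taf9 and Ak6 shared 59.1% of its exon bases with Taf9 on the same strand. The other Taf9 gene shared 73.8% with Ak6 on that strand. The reads of the pair, 8.51 and 23.0 in authors' mean normalized count, are therefore uncertain. The gene with both symbols had a fold change of −0.33 ± 0.40. Med10 shared 92.8% with the opposite-strand gene Gm26819. The strand and overlap settings of the counting are not given in the sources used here, and the part of overlap in the levels was not tested.

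The differences are set out by transcript length here, and the part of length in them was not tested. Over all 5752 tested genes, Spearman's rho of the rlog difference with the longest annotated transcript was 0.03, a description across genes that share libraries. Among tested genes with a longest transcript of up to 1500 bases, 25.6% were higher and 22.7% lower, and 6 of 13 of the genes described here were higher and 1 lower. From 1500 to 2500 bases these were 24.8% and 28.6%, with 8 higher and 0 lower of 12. From 2500 to 4000 bases they were 24.4% and 28.4%, with 6 higher and 0 lower of 10. Above 4000 bases they were 24.1% and 28.7%, with 3 higher and 2 lower of 11. From the shortest to the longest class, the mean difference of the genes described here was 0.205, 0.333, 0.333 and 0.061. Over all tested genes it was 0.008, −0.034, −0.031 and −0.032.

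The factors that work with these complexes were read from fixed lists. In limma, 0 of 48 were called by rlog and 0 of 19 by reads, with 5 and 3 at an unadjusted p under 0.05, against 14.1% and 14.6% of all genes in the same fits. The directions below stand against 24.6% of all tested genes higher and 27.4% lower by rlog. Of 19 general polymerase II factors, 15 were tested, with 6 higher, 7 equal and 2 lower. Among them Gtf2b (TFIIB), which places the polymerase at the start site, and Tbpl1, a TBP relative, each read 5, 5 and 5 in CTR against 6, 6 and 6 in NPM1 KD (adjusted p = 0.0791). Of 19 pausing, elongation and assembly factors, 13 were tested, with 3 higher, 8 equal and 2 lower. By reads, 5 more were compared, with 1 higher and 4 lower, against 43.2% and 56.8% of all genes in that fit. The groups did not overlap for 3 of them, all lower, against 12.7%. Rpap1, an assembly factor of polymerase II, had 14.5, 11.5 and 8.97 normalized reads in CTR against 6.38, 4.803 and 5.21 in NPM1 KD (−0.96, adjusted p = 0.277). Rpap2, a phosphatase of the C-terminal repeat domain, had 7.25, 5.38 and 8.97 against 5.10, 3.60 and 5.21 (−0.53, adjusted p = 0.642), and Ccnt2, a cyclin of the elongation kinase, 12.1, 11.5 and 9.87 against 3.83, 9.61 and 9.37 (−0.58, adjusted p = 0.506). Summed over the 6 genes of the list with known reads, the normalized reads were 49.9 ± 3.37 in CTR against 31.1 ± 4.31 in NPM1 KD (SD, n = 3). For polymerase III, 15 of 16 listed factors were found and 7 tested, with 2 higher, 5 equal and 0 lower. Gtf3c4, among the higher, read 3, 3 and 3 against 3, 4 and 4 and reached the level for testing only through NPM1 KD. The SAGA genes other than TAFs had 3 higher, 1 equal and 2 lower of 6 tested, and Eny2, a small SAGA subunit, read 4, 4 and 4 against 5, 5 and 5 (adjusted p = 0.0791). Atxn7l3, also among the higher, read 3, 3 and 3 against 4, 3 and 4. It too was tested only through its NPM1 KD libraries. Of the mitochondrial polymerase and its factors, Tfam read 5 throughout and Polrmt had 5.64, 13.8 and 10.8 normalized reads against 1.28, 8.41 and 6.25 (−0.97, adjusted p = 0.391).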

How the data were processed

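RNA from 3 CTR and 3 NPM1 KD samples of N2a cells was sequenced as PCR-amplified long-read cDNA. Per the labels, the authors used minimap2, featureCounts and DESeq2 with the GRCm39 build; versions and settings are not given in the sources used here. The authors deposited rlog values, a score on the log2 scale normalized for library size and rounded to whole numbers above 1, and a table of their own comparison (fold changes, standard errors and p-values, not used), from which only the mean normalized count over the 6 libraries, another deposited value, was taken. Of 26913 rows, 257 repeated an Ensembl ID and were left out; 11880 genes were at 0.

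Group differences were fitted with limma 3.58.1 in R 4.3.3 (lmFit, eBayes with an intensity trend) for genes with a mean rlog of at least log2 of 10, the within-group variance raised to at least 0.0833 to allow for rounding, two-sided, with Benjamini-Hochberg adjustment over all genes tested and a threshold of 0.05. A count test was planned on reads worked out from the mean normalized counts, but at means of 10 or more the reads have no unique solution, so it was not made. Below 10 they do, and a limma fit on log2(normalized reads + 1) for means of 3 to 10 was added after the data were seen. Reads were assigned to libraries by the decimals kept in small rlog values (1788 genes, correlation at least 0.998). Both fits were tested on simulated data, where the rlog fit made more false calls than its threshold allows when the simulated spread was smallest, and without the variance limit it did so at every spread tried. Total reads per library are unknown; mean normalized counts summed to 841220, and the limits quoted cover counting error only. The rule named genes that were called or whose groups did not overlap, the 2 largest subunits of each polymerase, Med12, Med13, Med14, Taf1, Cdk8, Tbp, Taf15 and Npm1; other genes given with values were chosen after these were seen, and a few genes are not reported here. Members, roles and lists were chosen with earlier results of these data known. Same-numbered libraries did not deviate together (correlations −0.013 to 0.030 over both fits), so no pairing was assumed.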

Additional observations from a re-analysis of the deposited data

How the results depend on the processing

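No gene of the set was called in the rlog fit under a lower level filter, no filter, centred libraries, the replicate block or any left-out library (0 to 0 higher, 0 to 0 lower), whereas 2 (Polr2l and Taf11) were called higher without the variance limit (adjusted p = 3.58e-11 and 2.44e-09) and 2 without the intensity trend (0.0304 for both), settings under which 2.14% and 2.29% of all genes were called higher and 3.09% and 3.79% lower, in place of 4 and 24 of 5752 genes; the no-limit fit ignores the rounding that makes the 3 values of a group identical. With the replicate block 0 were called in either direction, and over all genes 1 higher and 7 lower; same-numbered samples share only a number. Centring shifted equal genes by 0.02, so that 43 of 46 then counted as higher. In the fit on few reads 0 were called under every alternative, while calls over all genes went from 1 higher and 37 lower to 0 and 2 with 0.5 added before the log, and to 0 and 0 when any 1 CTR library was left out. Polr3b ranged from −0.38 (without NPM1 KD library 2) to 0.80 when 1 library was left out, Polr2b from 0.10 to 1.37 and Med14 from −0.98 to −0.16. The planned voom fit of the reads and its alternatives (other scalings, filters of 5 and 30, limma trend, block, left-out libraries) were not run for genes at means of 10 or more. The smallest change called was 1.33 log2 units in the rlog fit and 1.60 in the few-reads fit, with standard errors of 0.33 to 0.40 and 0.38 to 0.62 for the genes described, so changes well under these sizes would not have been called at this depth and rounding.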
